A study of Mus musculus with 10 samples.

Results

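The regions described here are those regions of differential chromatin accessibility in mouse atrial cardiomyocytes whose nearest protein-coding gene was Gja1, Jup, Dsc2 or Pkp2, which encode proteins of the intercalated disc. Each of the 5327 regions in the authors' deposited table is represented by a bin of 500 bp with its read counts, and a region was included when the nearest gene body to its bin, among 21900 protein-coding genes of RefSeq GRCm38.p6, was one of these 4 genes. This gave 16 regions, of which 10 belonged to Gja1, 3 to Jup, 2 to Pkp2 and 1 to Dsc2. The measurements came from ATAC-seq, which reads out open chromatin through a transposase that inserts sequencing adapters where DNA is accessible. The Prrx1(R1A)-/- group had 4 libraries from 4 mice homozygous for the R1A allele at Prrx1, a homeobox transcription factor gene. The control group had 6 libraries from 4 mice whose label is control and gives no further genotype; controls 1 and 3 each had a repeat library, summed here per animal. All mice were 8 to 12 weeks old, the left and right atria of each mouse were combined, and nuclei were sorted for PCM1, which marks cardiomyocyte nuclei. The sources used here do not say what the R1A allele removes or which strain was used.

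The intercalated disc joins heart muscle cells end to end. Gap junctions, built in working atrial and ventricular muscle largely from connexin 43, the product of Gja1, pass the electrical impulse from cell to cell, and desmosomes hold the cells together mechanically. In the desmosome, cadherins such as desmocollin-2 (Dsc2) span the membrane, and the armadillo proteins plakoglobin (Jup) and plakophilin-2 (Pkp2) connect them to the linker protein that holds the desmin filaments. In humans, inherited variants of the desmosomal genes cause arrhythmogenic cardiomyopathy, and loss of plakophilin-2 is known to disturb connexin 43 at the disc.

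The start sites of Gja1 and Jup are shown because they are the points from which distances along these genes are measured, and because no listed region of these 2 genes covers its promoter. Of the 4 genes, the promoter table holds Gja1 and Jup. Both sequences are 300 bases, 250 before and 50 after the start, from RefSeq GRCm38.p6, read 5′ to 3′ on the strand of the gene, chr10:56377050-56377349 on the plus strand for Gja1 and chr11:100397741-100398040 on the minus strand for Jup.
Gja1: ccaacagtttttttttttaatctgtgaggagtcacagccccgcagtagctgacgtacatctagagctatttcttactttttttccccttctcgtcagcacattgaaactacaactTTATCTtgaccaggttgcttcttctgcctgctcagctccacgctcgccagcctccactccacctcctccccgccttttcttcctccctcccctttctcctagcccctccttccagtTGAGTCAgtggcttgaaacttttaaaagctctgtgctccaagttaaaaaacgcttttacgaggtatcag
Jup: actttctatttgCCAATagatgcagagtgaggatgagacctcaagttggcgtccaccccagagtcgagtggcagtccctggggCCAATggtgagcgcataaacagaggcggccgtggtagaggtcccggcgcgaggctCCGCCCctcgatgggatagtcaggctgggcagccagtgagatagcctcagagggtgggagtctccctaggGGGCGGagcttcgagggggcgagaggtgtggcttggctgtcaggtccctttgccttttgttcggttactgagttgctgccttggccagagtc
Capitals mark matches on either strand. The motifs searched began with the core promoter elements, namely TATAAA for the TATA box. GGGCGG stood for the GC box bound by Sp factors. CCAAT is the box of that name. The letters TGANTCA stood for AP-1, the dimer of Fos and Jun proteins. Zinc finger factors of the GATA family were represented by AGATAA. Homeobox proteins were represented by TAATTA, a core that many of them bind. The TEAD factors of the Hippo pathway had GGAATG. The Gja1 window held 1 AP-1 match, whose first base lies 19 bases before the start, and 1 GATA match 135 bases before it. These motifs occurred in 7.81% and 11.2% of all 32851 promoter windows in the table. An E-box match (CANNTG, in 72.3% of windows) 23 bases before the start overlaps the AP-1 match and is not capitalised separately. The Jup window held 2 GC boxes and 2 CCAAT boxes (in 35.7% and 37.4% of windows) and none of the other motifs. The G and C content was 47.7% for Gja1 and 60.7% for Jup, against a median of 52.7% over all windows. These are matches of letters only.

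Reads are given as scaled reads per bin, that is, reads per animal divided by a factor that puts all animals on the scale of the authors' deposited fold changes. Bins all have the same length, so levels of different regions are set side by side without a length correction. No other difference between regions was corrected for, and a bin called more accessible below is one with more scaled reads. Reads in the listed bins ranged from 272223 to 521778 per Prrx1(R1A)-/- animal and from 151976 to 736607 per control animal, control 2 being the lowest; these totals cover called regions only and are not the sequencing depth. Log2 fold changes are Prrx1(R1A)-/- over control from edgeR's quasi-likelihood test, with a standard error, and p-values are Benjamini-Hochberg adjusted over all 5327 regions. The table holds only regions that the authors had called with these libraries, so an adjusted p here is not independent evidence of a difference. At the targeted gene, the authors listed 2 regions nearest to Prrx1, with 1.31 ± 1.53 and 3.03 ± 1.11 scaled reads in Prrx1(R1A)-/- atria, against 48.2 ± 3.65 and 50.01 ± 18.2 in control atria (SD, n = 4 each). The labelled cell type could not be checked fully from a table of changed regions. Of 10 atrial cardiomyocyte marker genes 6 had a listed region, with 22 regions higher and 26 lower in Prrx1(R1A)-/- (45.8% higher, against 66.7% of the table). These were Ttn (14 higher), Ryr2 (6 higher, 15 lower), Myl4 (1 higher, 5 lower), Actc1 (5 lower), Nppa (1 lower) and Sln (1 higher). Of 27 marker genes of other heart cell types 7 had a listed region, with 3 regions higher and 5 lower (37.5% higher). Lower were the endothelial markers Cdh5, Kdr and Npr3, with 1 region each, and the smooth muscle marker Acta2 with 2. Higher were the fibroblast marker Dpt, the pericyte marker Pdgfrb and the immune marker Csf1r, with 1 each. The bins counted for Cdh5, Kdr and Dpt lay 228, 55.8 and 31.5 kb from the gene. Among the cardiomyocyte markers, the Sln bin lay 15.0 kb from the gene. The Ryr2 bin with the smallest p in the authors' deposited table lay 565 kb from it. The part of other cells in the results below was not tested. Fewer open nuclei and less opening per nucleus cannot be told apart in such pooled samples.

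In Prrx1(R1A)-/- atria, reads were lower at every listed region in or just past the connexin 43 gene, whose other parts were not seen. Regions at the desmosomal genes Jup and Dsc2 were higher, whereas Pkp2 had a region in each direction. In the authors' deposited table, 7 of the 16 regions were higher in Prrx1(R1A)-/- (66.7% of the whole table) and 9 were lower (33.3%), and by edgeR on the same scale all 7 and all 9 passed at 0.05. That test called every region of the table, 66.7% higher and 33.3% lower, so passing it does not set these 16 apart. With TMM factors, which assume that most regions do not change, log2 fold changes were 0.60 lower across the table. On that scale edgeR called 0 of the 7 higher regions and 9 of the 9 lower regions. Over all 5327 regions it called 988 higher (18.5%), against 3551 that the authors list as higher. It called 1776 lower (33.3%), as many as the authors list as lower, so passing does not set these 9 apart. The 4 Prrx1(R1A)-/- animals lay above all 4 control animals at 7 regions (60.4% of the table) and below all of them at 8 (29.6%). By direction, the groups were apart in this way at 90.6% of the table's higher regions and 88.8% of its lower ones. Groups that do not overlap are therefore usual in this table and do not set the 16 regions apart. The folds were moderate for this table: the authors' deposited log2 changes had a median of 0.69 over the 7 higher regions, against 0.81 over all higher regions of the table, and of -0.72 over the 9 lower ones, against -0.80 over all lower regions.

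**Figure D1:**
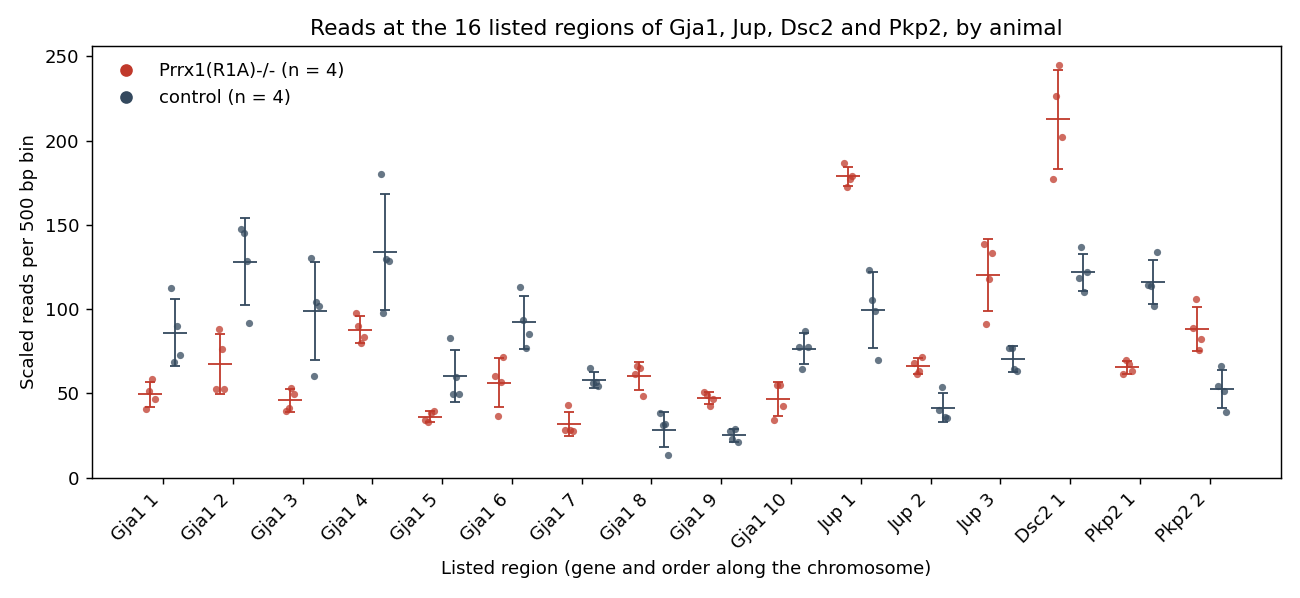
Scaled reads per 500 bp bin (vertical axis) at each of the 16 regions (horizontal axis, by gene and order along the chromosome); points are animals, bars the mean ± SD, with Prrx1(R1A)-/- in red and control in dark blue (n = 4 each). The groups overlap only at Gja1 region 4, where the highest Prrx1(R1A)-/- animal had 97.8 and the lowest control animal 97.4 scaled reads.

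Gja1 lies on the plus strand of mm10 chromosome 10 from 56377300 to 56390419, a gene of 13.1 kb. All 6 regions that lay in it or just past its end were lower in Prrx1(R1A)-/- atria. They stretched from 56380501 to 56391250, began 3.2 kb after the start site, and covered 7500 of these 10750 bp, with no gap between neighbours longer than 1500 bp. Exon and intron bounds were not in the reference used here. Summed over the 6 bins, Prrx1(R1A)-/- animals 1 to 4 had 324, 341, 363 and 344 scaled reads, against 766, 514, 588 and 530.04 in control animals 1 to 4. The groups were far apart, the lowest control animal lying well above every Prrx1(R1A)-/- animal, and the mean in Prrx1(R1A)-/- atria was 0.572 of that in control atria. Control 1 was the highest of all, and both of its libraries were high, with 776 and 758 scaled reads. With 5 bins inside 13.1 kb, Gja1 ranked 5th in bins per kb of gene body among the 244 genes with at least 3 listed bins inside them. It was also among the 19 genes with at least 10 listed regions of the 3148 with any. Its count of 10 includes regions 8, 9 and 10, which lie 191, 447 and 531 kb from the gene.

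The deepest loss lay at region 3, the widest of the Gja1 regions with 3500 bp (56384001 to 56387500), at width percentile 99.5 of the table. Its bin, centred 9.2 kb after the start site, had 39.3, 41.1, 53.2 and 49.8 scaled reads in Prrx1(R1A)-/- animals 1 to 4, against 130.4, 60.1, 104 and 102 in control animals 1 to 4. Control 2, the animal with the fewest reads, was much lower than the other controls there and still above every Prrx1(R1A)-/- animal. The log2 fold change was -1.17 ± 0.20 (SE; edgeR adjusted p = 2.58e-05), and -1.04 in the authors' deposited table (adjusted p = 9.04e-05).

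Upstream of it, still inside the gene, region 1 (56380501 to 56381500) had 40.8, 51.6, 58.2 and 46.9 scaled reads in Prrx1(R1A)-/- animals, against 112, 68.4, 89.8 and 73.0 in control animals, a log2 fold change of -0.84 ± 0.20 (SE; edgeR adjusted p = 0.000379). Region 2 (56382251 to 56383750) had 52.4, 88.3, 76.5 and 52.8 scaled reads in Prrx1(R1A)-/- animals, against 148, 145, 128 and 91.8 in control animals, a log2 fold change of -0.91 ± 0.19 (SE; edgeR adjusted p = 0.000149). At both regions every Prrx1(R1A)-/- animal was below every control, but at region 2 by little: its highest Prrx1(R1A)-/- animal, animal 2, came close to control 4.

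Toward the end of the gene lay regions 4 to 6, with smaller fitted losses than region 3; the difference between regions was not tested. Region 4 (56387751 to 56388250) was the most accessible of the Gja1 bins in both groups, with 97.8, 90.0, 79.9 and 83.5 scaled reads in Prrx1(R1A)-/- animals, against 180.1, 97.4, 129.5 and 128 in control animals. Here the groups met, since Prrx1(R1A)-/- animal 1 stood just above control 2, and the log2 fold change was -0.64 ± 0.17 (SE; edgeR adjusted p = 0.00103). Region 5 (56388751 to 56389250) had 33.9, 33.2, 38.3 and 39.6 scaled reads in Prrx1(R1A)-/- animals, against 82.6, 49.7, 59.8 and 49.8 in control animals (log2 -0.79 ± 0.21, SE; edgeR adjusted p = 0.00114). Region 6 (56390751 to 56391250), 0.332 kb past the gene's end, had 60.1, 36.7, 56.6 and 71.8 scaled reads in Prrx1(R1A)-/- animals, against 113, 93.2, 76.7 and 85.2 in control animals (log2 -0.73 ± 0.20, SE; edgeR adjusted p = 0.00121). The groups did not overlap at regions 5 and 6. Regions 4 to 6 were near the edge of the authors' list, with adjusted p-values in the authors' deposited table of 0.0433, 0.0346 and 0.0460.

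**Figure D2:**
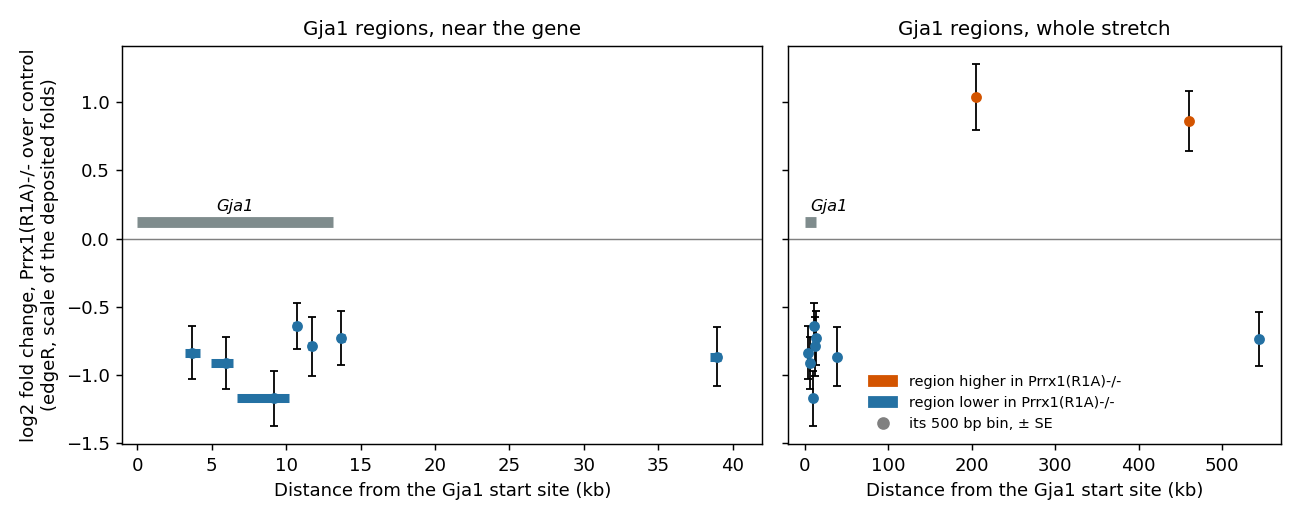
log2 fold change of each Gja1 region (vertical axis, edgeR ± SE, Prrx1(R1A)-/- over control) against its distance from the Gja1 start site in kb (horizontal axis), near the gene on the left and over the whole stretch on the right; coloured bars span the regions, points mark their 500 bp bins and the grey bar is the gene. The 7 regions within 40 kb of the start site are all below 0, and the 2 above 0, regions 8 and 9, lie much farther out.

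The shape of the signal over the 6 listed Gja1 bins was examined with each bin's share of the animal's own reads in them, a value in which the scale between libraries cancels. The authors had selected all 6 as lower, and the Jup bins as higher. Bins of these genes that did not change are therefore absent, and similar shares in the groups are partly built in. Region 3 held 13.3 ± 1.44% of these reads in Prrx1(R1A)-/- animals and 16.4 ± 3.27% in control animals (SD, n = 4 each; two-sided exact permutation p = 0.171). Region 4 held 25.7 ± 3.47% in Prrx1(R1A)-/- animals and 22.2 ± 2.33% in control animals (SD, n = 4 each; two-sided exact permutation p = 0.143). The other 4 bins differed by between -2.04 and 0.928 percentage points. With the 3 bins of Jup, 9 shares were compared, and none passed (Benjamini-Hochberg adjusted p from 0.771 to 0.914, exact permutation), where the smallest unadjusted p that 4 against 4 animals allow is 0.0286. With 9 tests, 1 share with complete separation of the groups would reach an adjusted p of 0.257, and at least 6 shares would have to separate completely to pass, so the adjusted test could hardly have called a change in any single bin, whatever its size.

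**Figure D3:**
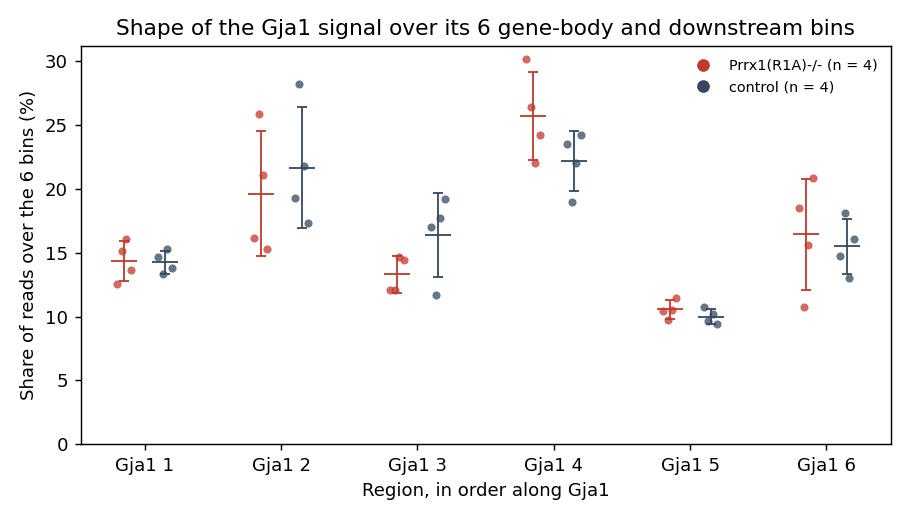
Share of reads over the 6 Gja1 bins (vertical axis, percent of the animal's reads in these bins) for each bin in order along the gene (horizontal axis); points are animals, bars the mean ± SD, Prrx1(R1A)-/- in red and control in dark blue (n = 4 each). The groups overlap at every bin, and the largest differences in mean are -3.08 percentage points at region 3 and 3.54 at region 4.

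Past the gene, region 7 (56415751 to 56416500), 25.6 kb from Gja1, was also lower. It had 28.5, 42.8, 28.3 and 27.8 scaled reads in Prrx1(R1A)-/- animals, against 65.0, 55.9, 57.0 and 54.2 in control animals, a log2 fold change of -0.87 ± 0.22 (SE; edgeR adjusted p = 0.000621). Prrx1(R1A)-/- animal 2 stood apart from its group there, yet below every control.

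The remaining 3 Gja1 regions lie far out in the stretch of 1093 kb without a protein-coding gene between Gja1 and Hsf2, a heat shock factor gene, and their assignment to Gja1 rests on distance alone. Region 8 (56581751 to 56582500), 191 kb from Gja1 and 902 kb from Hsf2, had 61.6, 66.4, 64.9 and 48.4 scaled reads in Prrx1(R1A)-/- animals, against 38.1, 31.1, 31.6 and 13.3 in control animals. This was the largest gain among the 16 regions, with a log2 fold change of 1.04 ± 0.24 (SE; edgeR adjusted p = 0.000357) on the authors' scale and 0.44 with TMM factors (edgeR adjusted p = 0.123). Region 9 (56837251 to 56837750), 447 kb from Gja1, had 50.8, 49.0, 42.4 and 46.9 scaled reads in Prrx1(R1A)-/- animals, against 27.8, 22.8, 28.7 and 21.0 in control animals. It changed by 0.86 ± 0.22 log2 (SE; edgeR adjusted p = 0.000722) on the authors' scale and by 0.27 with TMM factors (edgeR adjusted p = 0.305). Region 10 (56921501 to 56922000), 531 kb from Gja1 and 562 kb from Hsf2, went the other way, with 33.9, 55.1, 54.9 and 42.5 scaled reads in Prrx1(R1A)-/- animals, against 77.5, 64.2, 86.9 and 77.5 in control animals (log2 -0.74 ± 0.20, SE; edgeR adjusted p = 0.00101). The groups did not overlap at any of these 3 regions, and region 8 was the only one of them with a control animal, animal 4, far below its fellows.

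Jup encodes plakoglobin, which serves both desmosomes and adherens junctions. The gene lies on the minus strand of chromosome 11 from 100368856 to 100397839, and its 3 regions, all inside it and none over its promoter, were higher in Prrx1(R1A)-/- atria on the authors' scale. Region 1 (100387751 to 100388500), centred 9.79 kb after the start site, had 186, 172, 177 and 179 scaled reads in Prrx1(R1A)-/- animals, against 123, 106, 98.8 and 69.7 in control animals. The Prrx1(R1A)-/- animals were close together and well above the controls, and the log2 fold change was 0.83 ± 0.16 (SE; edgeR adjusted p = 5.93e-05). Region 2 (100389501 to 100390000) had 67.8, 61.2, 63.2 and 71.8 scaled reads in Prrx1(R1A)-/- animals, against 40.4, 53.9, 36.1 and 35.4 in control animals (log2 0.72 ± 0.20, SE; edgeR adjusted p = 0.00140). Region 3 (100395001 to 100395750), the nearest to the start site at 2.29 kb, had 139, 90.9, 118 and 133 scaled reads in Prrx1(R1A)-/- animals, against 77.0, 76.7, 64.4 and 63.1 in control animals (log2 0.78 ± 0.17, SE; edgeR adjusted p = 0.000258). At both regions the groups were apart, with control 2 the nearest to the Prrx1(R1A)-/- animals at region 2. Summed over the 3 bins, the mean in Prrx1(R1A)-/- atria was 365 ± 30.8 scaled reads, against 211 ± 34.2 in control atria (SD, n = 4 each), a ratio of 1.73. With TMM factors the 3 log2 fold changes were 0.23, 0.12 and 0.18, with edgeR adjusted p from 0.2003 to 0.598, so whether the gain at Jup was called depended on the scale.

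Dsc2 encodes the desmosomal cadherin desmocollin-2 and lies on chromosome 18 from 20030633 to 20059554. Its single listed region (20059501 to 20061000) reaches into the gene's higher-coordinate end, and its bin lies 0.447 kb past that end. This was the most accessible of the 16 bins, at percentile 95.0 of all listed bins by mean level. Prrx1(R1A)-/- animals 1 to 4 had 177, 226, 245 and 202 scaled reads, against 118, 137, 110.3 and 122 in control animals 1 to 4. Every Prrx1(R1A)-/- animal was above every control, and the log2 fold change was 0.83 ± 0.14 (SE; edgeR adjusted p = 2.28e-05), with 0.78 in the authors' deposited table (adjusted p = 2.13e-05, the smallest of the 16). With TMM factors it was 0.23 ± 0.14 (SE; edgeR adjusted p = 0.165).

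Pkp2 encodes plakophilin-2, the desmosomal plaque protein whose gene is the one most often altered in human arrhythmogenic cardiomyopathy. It lies on chromosome 16 from 16213345 to 16272712, and its pair of regions, 35.0 kb apart and both inside the gene, moved in opposite directions on the authors' scale. Region 1 (16219501 to 16220250) had 61.6, 69.9, 67.4 and 63.0 scaled reads in Prrx1(R1A)-/- animals, against 114, 114, 102 and 134 in control animals, a log2 fold change of -0.81 ± 0.17 (SE; edgeR adjusted p = 0.000124). Region 2 (16254751 to 16255500) had 88.6, 106, 75.7 and 82.1 scaled reads in Prrx1(R1A)-/- animals, against 54.3, 66.3, 51.2 and 38.7 in control animals, a log2 fold change of 0.77 ± 0.19 (SE; edgeR adjusted p = 0.000589). The groups did not overlap at either region, and the order of the bins was turned: region 2 was the more accessible in every Prrx1(R1A)-/- animal and region 1 in every control. The ratio of region 2 to region 1 within an animal, in which scaling cancels, was 1.44, 1.51, 1.12 and 1.302 in Prrx1(R1A)-/- animals 1 to 4, against 0.476, 0.582, 0.502 and 0.289 in control animals 1 to 4. Both regions had been selected by the authors for their difference, so this ratio was not tested. With TMM factors region 1 was called (log2 -1.41, edgeR adjusted p = 4.58e-08) and region 2 was not (log2 0.17, edgeR adjusted p = 0.431).

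**Figure D4:**
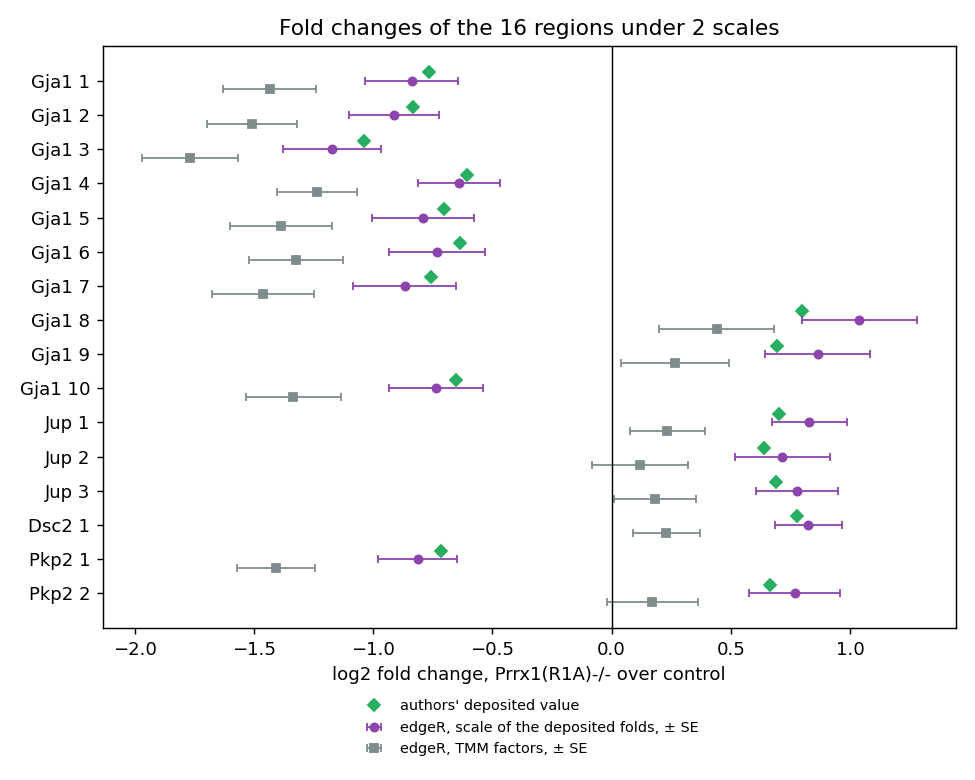
log2 fold change, Prrx1(R1A)-/- over control (horizontal axis), of each of the 16 regions as in the authors' deposited table (diamonds), by edgeR on the scale of the deposited folds (circles, ± SE) and by edgeR with TMM factors (squares, ± SE). The 9 lower regions lie between -1.17 and -0.64 on the first edgeR scale and between -1.77 and -1.24 with TMM; the 7 higher regions lie between 0.72 and 1.04 and between 0.12 and 0.44.

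By level, the order of the bins differed between the groups. In Prrx1(R1A)-/- atria the Dsc2 bin and Jup region 1 stood highest, with 213 ± 29.3 and 179 ± 5.90 scaled reads, whereas in control atria Gja1 regions 4 and 2 stood first, with 134 ± 34.2 and 128 ± 25.7, next to the Dsc2 bin with 122 ± 11.1 (SD, n = 4 each). These 3 control means lie within each other's spread. The lowest bins were Gja1 region 7 in Prrx1(R1A)-/- atria, with 31.9 ± 7.31 scaled reads, and Gja1 region 9 in control atria, with 25.1 ± 3.76 (SD, n = 4 each). Of the 16 bins 10 lay inside a gene body, or 62.5%, against 60.9% of all listed bins, and no bin of Gja1 or Jup lay on a promoter window, where 4.37% of all listed bins did; Dsc2 and Pkp2 could not be checked, having no window in the table used.

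The wider set of disc genes was read from a list of 44 genes, all found in the reference, of which 22 had a listed region. These 22 genes, the 4 described above included, had 26 higher and 27 lower regions, or 49.1% higher against 66.7% of the table. Without Gja1, Jup, Dsc2 and Pkp2, the other 18 genes had 19 higher and 18 lower regions, or 51.4% higher. Regions at genes of the desmosome list, which includes filament genes, were mostly higher, 9 against 1 lower, the lower one being at Pkp2. Besides the members these were single regions at Pkp4, a plakophilin relative, and Des, the desmin gene, and 2 at Synm, which encodes the filament protein synemin. The Synm region with the smallest p in the authors' deposited table lay 44.0 kb from the gene. With TMM factors the regions of smallest p at Pkp4, Des and Synm were not called (edgeR adjusted p = 0.166, 0.583 and 0.295), nor was any higher region of the members. Of the desmosome list, Dsp and Dsg2, the genes of desmoplakin and desmoglein-2, had no listed region. Gja1 was the only connexin gene of the 6 on the list with a listed region, so the atrial connexin gene Gja5 had none.

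Among genes of the adherens junction and the mixed junctions of the disc, 10 regions were higher and 14 lower (41.7% higher, against 66.7% of the table). The lower ones gathered at Ldb3, a Z-disc scaffold gene with 5 lower regions, at Lmo7 with 4 and at Pdlim5 with 3. The Lmo7 region with the smallest p in the authors' deposited table had 98.4 ± 7.51 scaled reads in Prrx1(R1A)-/- atria, against 175 ± 10.2 in control atria (SD, n = 4 each), and a log2 fold change of -0.82 ± 0.14 (SE; edgeR adjusted p = 2.44e-05). The Pdlim5 region chosen in the same way had 9.16 ± 4.20 scaled reads in Prrx1(R1A)-/- atria, against 27.9 ± 4.03 in control atria (SD, n = 4 each; log2 -1.64 ± 0.39, SE; edgeR adjusted p = 0.000403). Vcl, the vinculin gene, had 1 lower region. Higher regions were found at Tjp1, Flnc and Myzap with 2 each, and at Cdh2, which encodes N-cadherin, Ctnna3 and Ctnnd1 with 1 each. Xirp2 had 1 in each direction. Its higher region was low in reads, with 39.5 ± 19.9 scaled reads in Prrx1(R1A)-/- atria, against 12.2 ± 6.13 in control atria (SD, n = 4 each), and was one of the few called also with TMM factors (log2 0.96, edgeR adjusted p = 0.0273).

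Among channels and their anchors at the disc, 5 regions were higher and 4 lower (55.6% higher, against 66.7% of the table). Ank3, the gene of the membrane anchor ankyrin-G, had 3 higher and 1 lower region. Its leading region had 112 ± 22.7 scaled reads in Prrx1(R1A)-/- atria, against 46.3 ± 5.23 in control atria (SD, n = 4 each; log2 1.25 ± 0.19, SE; edgeR adjusted p = 4.65e-06), and was called with TMM factors too (log2 0.65, edgeR adjusted p = 0.00439). Ank2 had 2 higher and 1 lower, and Tmem65 and Popdc2 had 1 lower each. With TMM factors, 4 of the 26 higher regions of the disc list were called, and all 27 lower ones were. Over all 5327 regions, 988 were called higher (18.5%), against 3551 that the authors list as higher. As many were called lower, 1776 (33.3%), as the authors list as lower, so calling all 27 does not set the disc list apart.

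**Figure D5:**
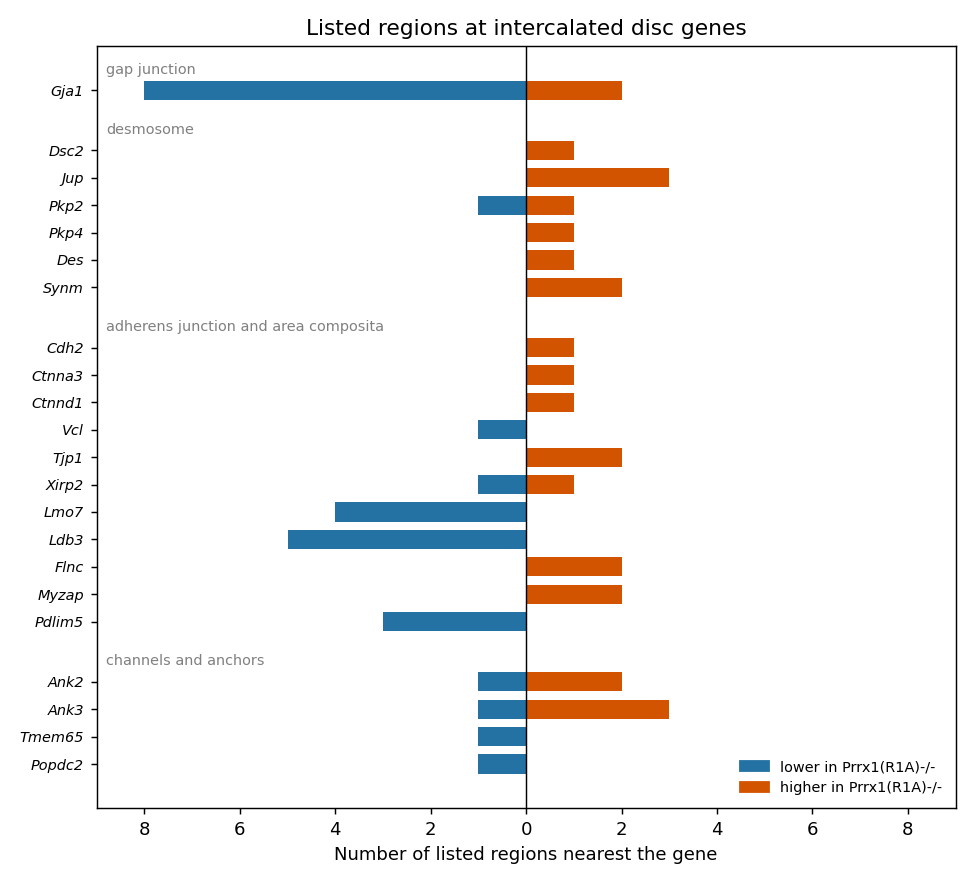
Number of listed regions (horizontal axis) nearest each of the 22 disc genes with any (vertical axis, grouped by role), lower in Prrx1(R1A)-/- to the left and higher to the right, as in the authors' deposited table. Gja1 has 8 lower and 2 higher regions, and the genes of the desmosome list, filament genes included, 9 higher and 1 lower.

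How the members varied between animals of the same group was described from log2(scaled reads + 1), averaged over a gene's regions, after subtracting each group's mean. Over the 8 animals, among 459 other genes with at least 3 listed regions, the 5 that followed Gja1 most closely were Ahdc1 (Pearson r = 0.941), Adamts17 (0.935), Lama2 (0.924), Prdm1 (0.906) and Osr1 (0.901). For Jup they were Ywhaq (0.965), Actb (0.927), Uck2 (0.926), Tspan18 (0.905) and Cdkn2aipnl (0.892). No gene stood in both sets. These are the highest of many coefficients over few animals, all counted in the same libraries, and carry no p. Among the 6 Gja1 bins themselves the 15 pairwise coefficients had a median of 0.527 and ranged from -0.402 to 0.832 over the same 8 animals.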

How the data were processed

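Per the labels' protocols, PCM1-stained nuclei from both atria of each mouse were sorted and libraries were read as pairs of 150 bp. The submitters' processing notes name BWA, bedtools, DESeq2 and mm10, without versions or roles. The authors' deposited counts are raw reads per 500 bp bin, except 17 cells written as 0.1 where no cell holds 0; what produced the 0.1 is not stated. The authors' deposited columns were therefore read as estimated counts, with 0.1 set to 0 by rounding. The deposited log2 fold change is control over Prrx1(R1A)-/- and its sign was turned. The authors' deposited p-values are adjusted and reach 0.04999. The deposited group signal is the geometric mean of raw counts. Read shifting, duplicate handling, peak filters and the authors' test design are not stated in those sources.

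Controls 1 and 3 were summed over their repeat libraries, which were closer to each other (chi-square over its degrees of freedom 1.83 and 1.70) than libraries of different control animals were (2.17 to 3.40), though not within sampling noise. Factors within a group were median ratios; the offset between groups, 0.142 log2, is where a line through the deposited log2 fold changes against the log2 ratios of the deposited means (1432 regions with both means at least 50, slope 0.874) crosses 0. The deposited folds were thus used to set the scale. Tests were edgeR 4.0.16 (R 4.3.3; glmQLFit, glmQLFTest) over all 5327 regions without a filter, two-sided, with Benjamini-Hochberg adjustment at 0.05; the SE is the log2 fold change over the root of F. The step was tested on simulated data. Permutation tests used SciPy 1.17.1. DESeq2 1.42.0 and TMM were alternatives. Named genes were the 4 members with every listed region, list genes with a listed region, and the 5 most alike genes. Some genes of the disc list are not reported here and were left out of its counts. The promoters were printed although no listed region covers them, a choice made after their positions were seen. The members, lists and scale were chosen with earlier results of these data known. Coordinates are mm10, counted from 1. Labels give separate animals per replicate. Intervals for counting error are not given, since PCR reads are not independent molecules. Replicate numbers shared by the groups were not treated as pairs in the main fit.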

Additional observations from a re-analysis of the deposited data

Results flagged for a closer look

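At Gja1 region 7, Prrx1(R1A)-/- animal 2 had 42.8 scaled reads, while the other animals of its group had between 27.8 and 28.5, a gap of 0.956 of the group's range. It was the only one of 32 groups of 4 animals (16 regions, 2 genotypes) with a sample this far from the others, and chance alone flags about 1 group in 20. The value was still below the lowest control animal, and without this animal the log2 fold change was the lowest of the leave-one-out values for that region, -1.05.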

How the results depend on the processing

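All 9 lower regions were called under each alternative scale, tool, filter, treatment of repeat libraries and omitted animal. The main fit called every region of the table, and TMM factors called as many regions lower, 1776, as the authors list. Shares of the whole table are not given for the other settings, so the counts in this section do not set the 16 regions apart. The 7 higher regions stayed higher in each of these fits, but with TMM factors, median-ratio size factors or DESeq2 with its own size factors 0 of the 7 passed, and with library sizes alone 4 passed. At an unadjusted p under 0.05, too, 0 of the 7 passed in the TMM, median-ratio and DESeq2 fits. These fits take most listed regions as unchanged. The 66.7% of the table that is higher is so on the authors' own scale, and which scale is right was not tested. Restricting the members to an authors' adjusted p under 0.01 left 3 higher and 5 lower, by construction. Leaving out each animal in turn gave 7 higher and 9 lower calls each time. Within 50 kb of a gene there were 5 higher and 8 lower regions. The fit with animal number as a replicate block called 7 higher and 9 lower and changed no call. Correlations of deviations ranged from -0.036 to 0.265 between same-numbered animals and from -0.152 to 0.081 between differently numbered ones. The highest was that of the animals numbered 1. So few values cannot show whether the numbers pair the animals. For the shares of reads by bin, 3 against 4 animals allow no exact p below 0.0571, so leaving out an animal could give no call and says nothing of stability. With the first library alone of controls 1 and 3, the groups separated completely at Gja1 region 5 (higher in Prrx1(R1A)-/- by 1.25 percentage points, exact permutation adjusted p = 0.257). Across these alternatives 10 share differences changed sign; the cause was not tested.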
